A study of Mus musculus with 18 samples.

Results

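The 2.6 Mb of mouse chromosome 13 between positions 21500001 and 24100000 (build mm39) were examined as the window of the main cluster of replication-dependent histone genes and tRNA genes. The members were selected on their position alone, as every peak that overlaps the window, but the window itself was chosen because peaks of the DNA glycosylase TDG had been seen there in these same libraries. It held 731 of the 494083 peaks in 15 peak lists, and 23896 peaks lay on the rest of chromosome 13. The lists come from chromatin immunoprecipitation sequencing (ChIP-seq) of frozen cerebral cortex from 3 wild-type female C57BL/6J mice, 14 weeks old and numbered 5, 7 and 9, with no treatment. Each animal gave 1 library against each of 5 antibodies, so every comparison below is between antibodies or between the window and the rest of its chromosome. The cortex was processed whole, so a peak says nothing of which cell type carried it, and a weak peak in many cells cannot be told apart from a strong peak in few.

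Replication-dependent histone genes encode the H1, H2A, H2B, H3 and H4 proteins that package newly made DNA. They have no introns, are transcribed by RNA polymerase II mainly while DNA is being copied, and lie in dense clusters in the genome, whereas the tRNA genes interspersed among them are transcribed by RNA polymerase III. Adult cortex holds mostly cells that no longer divide. Of the 5 antibodies, H3K27ac marks active promoters and enhancers, H3K4me1 is found mainly at enhancers, and PolII_S5P detects RNA polymerase II phosphorylated at serine 5, the form found near transcription starts. MBD3 is a subunit of the NuRD complex, which joins nucleosome remodelling to histone deacetylation. TDG (thymine DNA glycosylase) removes thymine from G:T mismatches and takes out oxidized forms of methylcytosine during base excision repair.

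An annotation on mm39 was not used here, so no peak below is assigned to a gene, and the name of the cluster rests on the choice of window. The order of genes was read from a RefSeq table on GRCm38.p6. From the first histone gene, H2bc13, to the last, H2ac1, that table lists 255 genes on chromosome 13. They include 56 histone genes, 54 of them protein coding, made up of 6 H1, 15 H2A, 15 H2B, 9 H3 and 11 H4 genes, where the gene listed as H4bc24 was counted as H2B by its older name. They also include 77 of the 430 tRNA genes in the table, for 17 amino acids, led by 11 serine and 10 valine tRNA genes. The 2 families do not run through the stretch evenly. In gene order, 24 histone genes and 32 tRNA genes come first, then a block of 75 vomeronasal receptor genes (pheromone receptors of the vomeronasal organ) with no histone or tRNA gene among them, then 32 histone genes and 45 tRNA genes.

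The promoters of the histone genes share short sequence elements, each held by a larger share of them than of all promoters, and 1 example per family is shown so that the elements can be seen in place. RefSeq promoters on GRCm38.p6 were found for 51 of the 56 histone genes, and the 250 bases before each start were searched on both strands for 4 strings. CCAAT (or ATTGG), the core of the CCAAT box, was in 43 of the 51 histone promoters (84.3%) and in 34.5% of all 27025 promoters in the table. TATAAA, searched with its complement TTTATA, was in 51.0% against 13%, and is a form of the promoter element that positions RNA polymerase II. ATTTGCAT (or ATGCAAAT), the octamer known from H2B promoters, was in 19.6% against 1.61%. AAACACA (or TGTGTTT), an element known from H1 promoters, was in 17.6% against 6.22%. The families differed. CCAAT was in every H1, H2A, H2B and H3 promoter searched but in 3 of 11 H4 promoters, the octamer was in 5 of 13 H2A and 5 of 14 H2B promoters and in no other histone promoter, and AAACACA was in 5 of 6 H1 promoters, 2 H2A and 2 H2B promoters. In the 33 vomeronasal receptor promoters of the same stretch, CCAAT was in 33.3%, TATAAA in 18.2%, the octamer in 9.09% and AAACACA in 24.2%, the last a larger share than in the histone promoters as a whole. Neighbouring genes share sequence, since 20 of the 51 stretches overlap another, so these counts are not independent. A match describes letters in the stretch and not a bound site.
The last 120 bases before the start are printed below from 5′ to 3′ on the strand of the gene, with the matched strings in capitals, for the member of each family with the most of the 4 strings (the first in gene order where several tied). Their GRCm38.p6 positions, which cannot be set beside the mm39 positions of the peaks, are chr13:21780626-21780745 on the minus strand for H1f5, and on the plus strand chr13:23750968-23751087 for H2ac4, chr13:21721924-21722043 for H2bc14, chr13:21717508-21717627 for H3c10 and chr13:23581448-23581567 for H4c4.
H1f5: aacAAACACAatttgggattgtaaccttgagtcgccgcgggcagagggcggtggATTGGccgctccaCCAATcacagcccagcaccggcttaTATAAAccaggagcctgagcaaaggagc
H2ac4: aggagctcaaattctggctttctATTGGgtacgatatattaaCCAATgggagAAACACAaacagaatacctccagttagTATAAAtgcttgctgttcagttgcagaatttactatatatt
H2bc14: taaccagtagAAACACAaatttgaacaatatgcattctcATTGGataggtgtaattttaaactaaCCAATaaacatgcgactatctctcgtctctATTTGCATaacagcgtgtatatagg
H3c10: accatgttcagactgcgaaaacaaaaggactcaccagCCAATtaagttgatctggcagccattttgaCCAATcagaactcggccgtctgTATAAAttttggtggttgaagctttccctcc
H4c4: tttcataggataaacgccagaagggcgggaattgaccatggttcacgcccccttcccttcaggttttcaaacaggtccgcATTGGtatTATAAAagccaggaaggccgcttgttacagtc

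Along the window, the peaks formed 2 blocks with a nearly empty stretch between them. The first 8 bins of 100 kb, up to position 22300000, held peaks of at least 1 antibody in 2 or 3 libraries without exception. From 22300001 to 23400000, 11 bins in a row held only 5 of the 731 peaks. They were 1 H3K27ac region in all 3 animals at chr13:22565474-22566087, with 1 H3K4me1 peak of animal 5 inside it, and 1 MBD3 peak of animal 9 at chr13:23031065-23031295. No PolII_S5P or TDG peak lay there. From 23400001 to 24000000 every bin was occupied again, and the last bin of the window held 1 MBD3 peak. The 8 bins from 22600001 to 23400000 formed the only run of at least 3 bins with no antibody in 2 or more libraries. Such runs are common on the chromosome, as the rest of it had 40, of which 10 were at least 8 bins long and the longest was 19.

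**Figure D1:**
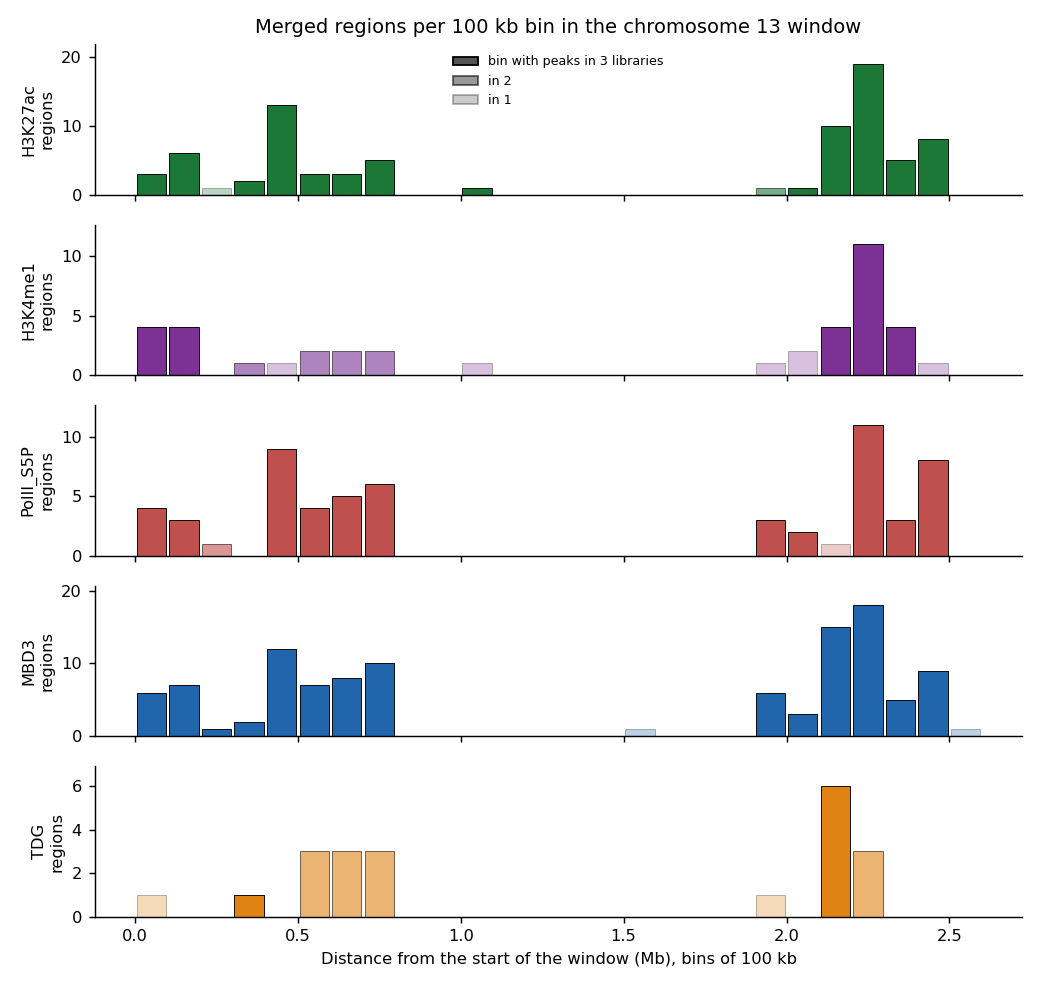
Number of merged regions (peaks of the 3 animals joined where they overlap) per 100 kb bin, against distance from the start of the window in Mb, for each antibody. Full colour marks bins with peaks in 3 libraries, paler colours 2 or 1; the 2 blocks are separated by 11 bins that held 5 of the 731 peaks.

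Occupied bins were not all alike. The richest bin was 23700001 to 23800000, with 149 peaks over the 15 lists, followed by 21900001 to 22000000 with 98, 23600001 to 23700000 with 77, 23900001 to 24000000 with 66 and 22200001 to 22300000 with 58. In the richest bin 19 H3K27ac, 11 H3K4me1, 11 PolII_S5P, 18 MBD3 and 3 TDG regions lay side by side. The bin from 23600001 to 23700000 differed, with 15 MBD3, 10 H3K27ac and 6 TDG regions but 1 PolII_S5P region, which was called in 1 library. The bin from 21800001 to 21900000 held no PolII_S5P peak, and its 2 H3K27ac, 2 MBD3 and 1 TDG regions were each present in 3 libraries. The edges of the window were not edges of the peaks on the proximal side. The 100 kb just outside its start held 24 MBD3 peaks, 6 TDG peaks and 6 H3K27ac peaks over the 3 animals, against 16, 1 and 9 in the first 100 kb inside. The 100 kb just outside its end held no peak of any antibody.

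The density of peaks relative to the rest of chromosome 13 differed between antibodies, from well below to far above the chromosome. PolII_S5P had 35, 58 and 49 peaks in the window in animals 5, 7 and 9, which is 6.21, 2.63 and 3.20 times the density on the rest of the chromosome (mean log2 ratio 1.90 ± 0.65, SD, n = 3). All 3 libraries were above the chromosome, animal 5 the most, which was also the animal with the fewest PolII_S5P peaks in all (4409, against 19816 and 12691). MBD3 had 93, 107 and 82 peaks, at 1.64, 1.68 and 2.04 times the density of the rest (mean log2 ratio 0.83 ± 0.17). H3K27ac had 70, 75 and 70 peaks, at 0.958, 0.981 and 1.09 times (mean log2 ratio 0.01 ± 0.10), so the libraries lay on both sides of equality. H3K4me1 was sparse in all 3 animals, with 23, 28 and 11 peaks at 0.571, 0.511 and 0.411 times the rest (mean log2 ratio -1.02 ± 0.24). The number of reads behind the lists is unknown, and list lengths differ between animals of the same antibody.

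TDG was the antibody that led to the choice of window, so its density is a description. It had 7, 4 and 19 peaks there, at 77.3, 17.7 and 15.3 times the density of the rest (mean log2 ratio 4.78 ± 1.29), and these were 63.6%, 28.6% and 25.7% of all TDG peaks on the chromosome, in 2.21% of its length. These ratios rest on few peaks, since only 4, 10 and 55 TDG peaks lay on the rest of chromosome 13. Without animal 5 the mean log2 ratio of TDG was 4.04, and without animal 9 it was 5.21. With the 3 TDG lists reduced to equal length, the ratios were 77.3, 33.1 and 82.1 times (mean log2 ratio 5.89), so the lead of animal 5 was not kept. At a −log10 q of 5 or more the mean log2 ratio was 5.54.

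TDG led to the choice of window, so only the difference between the other 4 antibodies was tested. MBD3 overlapped 18 of the 21 TDG regions of the window in 2 or 3 libraries, so the choice may bear on MBD3 density too. The test covers 1 window and asks whether libraries of the same antibody resemble each other there. Antibody accounted for 0.930 of the variance (eta squared) of the log2 density ratio over 12 libraries, with p = 8e-05 in a two-sided permutation test of 100000 resamples. With all 15400 arrangements enumerated, the exact p was 6.49e-05, the smallest this design can give. The animals pair the libraries, and with labels permuted only within each animal, as a replicate block, the exact p over 576 arrangements was 0.00174, again the smallest possible. Each of the 6 pairs of antibodies was separated without overlap, H3K4me1 lowest, then H3K27ac, MBD3 and PolII_S5P. For every pair the exact permutation p was 0.1 (adjusted 0.1), the smallest that 3 libraries against 3 allow. PolII_S5P exceeded MBD3 by 1.07 ± 0.74 on the log2 scale (SD over 3 animals) and by 1.92, 0.64 and 0.65 in animals 5, 7 and 9. With lists made equal in length within each antibody the gap was 1.63, 1.54 and 1.31 (1.49 ± 0.16), nearly even over the animals. The lists then held 4409 peaks for PolII_S5P and 39326 for MBD3, so the 2 antibodies were not matched in length. In the MBD3 and TDG lists the names of unplaced sequences carry a repeated prefix that the lists of the other 3 antibodies lack. The sources used here do not say why, and whatever sets the lists apart in this way cannot be told apart from the antibody.

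**Figure D2:**
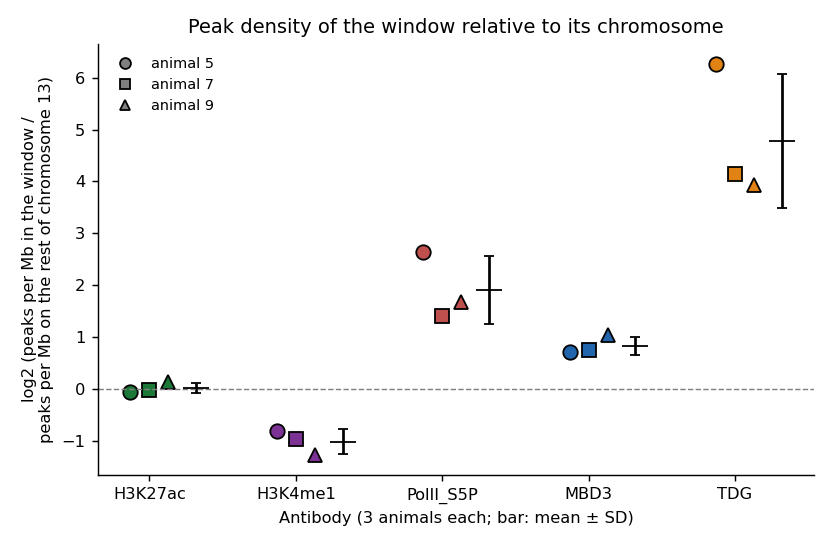
log2 of the peak density in the window over that on the rest of chromosome 13, for each library (points, 3 animals per antibody) with the mean ± SD beside them; the dashed line marks equal density. H3K4me1 libraries lie below the line (-1.28 to -0.81), H3K27ac libraries on it, and all PolII_S5P, MBD3 and TDG libraries above it.

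When chromosome 13 was divided into 45 tiles of the window's length, the window ranked 1 from the top for TDG in every animal, and 1, 3 and 3 for PolII_S5P. It ranked 7, 6 and 6 for MBD3, 20, 20 and 14 for H3K27ac, and 31, 32 and 33 for H3K4me1. The occupied bins on each side of the sparse stretch, whose limits were set after the bins were seen, were then compared: 0.8 Mb up to 22300000 (proximal block) and 0.6 Mb from 23400001 to 24000000 (distal block). The rest of the chromosome kept its empty bins, as 853 of its 1148 bins held a peak. Against occupied bins alone, the ratios of both blocks would thus be lower. H3K27ac stood at 2.46 ± 0.21 times the rest of the chromosome in the distal block and 1.39 ± 0.07 times in the proximal block (SD, n = 3). MBD3 stood at 3.86 ± 0.21 and 2.87 ± 0.53 times. H3K4me1 stood at 1.20 ± 0.08 times in the distal block and at 0.688 ± 0.176 times in the proximal one. In these 3 antibodies every animal had the higher ratio in the distal block. That direction was kept where the distal block ran on to the end of the window, but some gaps shrank. MBD3 of animal 9 was then at 3.51 times in the distal block against 3.48 in the proximal one, and H3K4me1 stood at 1.03 ± 0.07 times in the distal block. PolII_S5P stood at 8.27 ± 4.18 and 6.85 ± 3.13 times, a gap smaller than the spread between animals. In animal 9 its direction turned with the limit chosen, with 5.74 times in the proximal block against 6.23 in the distal block, but 5.34 where the distal block ran on to the end of the window.

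A larger share of regions was present in all 3 animals in the window than on the rest of the chromosome for PolII_S5P, H3K27ac and MBD3. TDG had a larger share as well, but its peaks led to the choice of window. These shares are described without a test because regions are not replicates. The 59 PolII_S5P regions were present in 3, 2 and 1 libraries in 31, 15 and 13 cases, so 52.5% were in all 3 animals, against 13.9% of 1212 regions on the rest of chromosome 13. The 80 H3K27ac regions were in 3, 2 and 1 libraries in 52, 13 and 15 cases, 65.0% in all 3 against 41.2%. The 109 MBD3 regions were in 3, 2 and 1 libraries in 66, 24 and 19 cases, 60.6% against 38.9%. The 40 H3K4me1 regions did not stand apart, with 6, 10 and 24 cases and 15.0% in all 3 against 16.1%. The 21 TDG regions fell into 2, 5 and 14 cases, 9.52% against 1.64%, and 12 of the 14 found in a single library came from animal 9, which has the longest TDG list. Of the PolII_S5P and MBD3 regions found in 1 library, 11 of 13 and 13 of 19 came from animal 7, which has the longest list of each.

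Counted by bins, PolII_S5P was spread over more of the window than over the chromosome. It had peaks in 3 libraries in 11 of the 26 bins (42.3%), against 9.84% of 1148 bins on the rest, and in 2 and 1 libraries in 1 bin each. H3K27ac was in 3 libraries in 13 bins (50% against 49.1%) and MBD3 in 14 bins (53.8% against 51.6%), both close to the chromosome. H3K4me1 was in 3 libraries in 5 bins (19.2% against 29.1%), in 2 libraries in 4 and in 1 library in 5. TDG was in 3 libraries in 2 bins (7.69% against 0.174%), in 2 libraries in 4 and in 1 library in 2. The 2 bins with TDG in all 3 animals were those from 21800001, where PolII_S5P was absent, and from 23600001, where it was in 1 library. Just past the end of the first of these bins, PolII_S5P was present in 3 libraries. It lay within overlapping peaks that joined over chr13:21899193-21901580, across the bin's edge. In 5 bins (19.2%) 4 antibodies were present in 3 libraries, against 5.49% of the bins on the rest of chromosome 13. In 4 of them these were H3K27ac, H3K4me1, PolII_S5P and MBD3, and in the bin from 23600001 TDG took the place of PolII_S5P.

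PolII_S5P peaks of the window ranked high within their own lists. The median percentile of their fold enrichment (the authors' ratio of signal to local background) was 85.3, 90.9 and 76.1 in animals 5, 7 and 9, against 53.8, 57.5 and 55.3 on the rest of chromosome 13. The top 10% of each list took in 34.3%, 51.7% and 40.8% of the window's PolII_S5P peaks. All 3 animals showed the higher rank. H3K27ac peaks ranked higher in animals 5 and 7 (72.1 and 70.3, against 51.1 and 50) but not in animal 9 (52.9 against 53.2), and MBD3 peaks ranked higher in animals 5 and 7 (66.5 and 66.2, against 50.7 and 51.6) and lower in animal 9 (42.2 against 53.1). H3K4me1 medians were 55.9, 65.2 and 60.7, against 55.9, 51.2 and 51.0. TDG medians were 88.5, 87.1 and 93.4, against 76.2, 38.3 and 40.0.

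**Figure D3:**
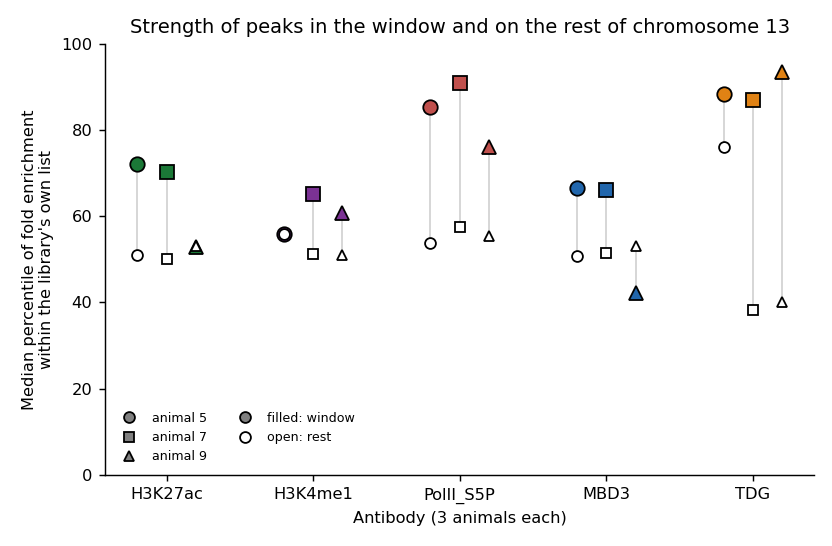
Median percentile of fold enrichment within each library's own peak list, for peaks in the window (filled) and on the rest of chromosome 13 (open), by antibody and animal. The 3 PolII_S5P libraries lie between 53.8 and 57.5 on the rest and between 76.1 and 90.9 in the window; MBD3 of animal 9 is lower in the window.

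The strongest PolII_S5P regions of the window were near the top of the whole genome's lists, and all 5 lay under H3K27ac and MBD3 peaks in 3 libraries each, with no H3K4me1 peak on them. The first was chr13:23765380-23766206, where the fold enrichment was 14.3 in animal 5, 28.6 in animal 7 and 26.3 in animal 9, at percentiles 99.6, 99.9 and 99.9 of their lists. It overlaps chr13:23765285-23766075, the strongest MBD3 region of the window (20.0, 17.0 and 12.2). The second, chr13:23881971-23882627, had 12.4, 30.4 and 21.8. The other 3 were chr13:21995767-21996303 (7.89, 24.2 and 14.5), chr13:23714968-23715655 (9.59, 13.5 and 7.76) and chr13:23867662-23868512 (7.51, 11.9 and 9.01). Around the first and the last of the 5, peaks joined over chr13:23765285-23767963 and chr13:23866765-23868825. These joined stretches included H3K4me1 in 2 and 1 libraries. Folds come from lists made separately, so they rank regions within an animal and are not compared between animals.

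The strongest H3K27ac regions were less extreme. At chr13:21591614-21593483 the folds were 10.6, 9.18 and 6.52, and at chr13:23754313-23756150 they were 7.42, 10.3 and 6.49. The remaining 3, chr13:21993286-21996602, chr13:23745782-23748748 and chr13:22015554-22018983, were 2967 to 3430 bp wide, and all 5 carried MBD3 in 3 libraries and PolII_S5P in 2 or 3. None of the 5 carried H3K4me1. MBD3 led at chr13:21894073-21895546 (12.8, 14.0 and 16.9) and chr13:21993344-21996773 (13, 17.7 and 9.95) after the region named above. Its next regions were chr13:23622109-23622465 (16.0, 12 and 10.1) and chr13:23614811-23616073 (15.8, 14.4 and 7.96). Of the 5 leading MBD3 regions 3 also held TDG, in 3, 2 and 1 libraries. Among all MBD3 peaks of the window, 5.38%, 3.74% and 14.6% met TDG in animals 5, 7 and 9. TDG peaks led to the choice of window, so this is a description.

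The 6 H3K4me1 regions with peaks in 3 animals had folds of at most 4.67 in the 5 that are named here, and 4 of these 5 met H3K27ac in at least 1 library. The best-ranked was chr13:23628217-23628955 (folds 3.69, 3.19 and 3.75), which lay under H3K27ac in 3 libraries. The next, chr13:21585141-21585630 (3.99, 2.95 and 3.61), carried no other antibody, and chr13:23718657-23719086 (3.22, 3.75 and 3.08) carried H3K27ac in 2 libraries. At chr13:23803294-23804445 (3.10, 4.67 and 2.89) and chr13:21635827-21637110 (2.66, 4.30 and 3.32), MBD3 was present in 1 library each and H3K27ac in 3 and 1 libraries. None of these 5 regions directly overlapped a PolII_S5P or TDG peak. Even so, the first of these 2 lay in peaks that joined over chr13:23803294-23807336, with PolII_S5P and MBD3 in 3 libraries each. The second lay in peaks joined over chr13:21635827-21638113, with PolII_S5P in 2 libraries and MBD3 in 3. Around chr13:23718657-23719086, peaks joined over chr13:23716442-23719187, with MBD3 in 3 libraries and no PolII_S5P. At a −log10 q of at least 5, no H3K4me1 region of the window was left in 3 libraries.

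H3K27ac, PolII_S5P and MBD3 peaks overlapped each other in a larger share of cases in the window than elsewhere in most pairings, and met H3K4me1 in a smaller share. Of the H3K27ac peaks of animals 5, 7 and 9, 84.3%, 85.3% and 71.4% lay on MBD3 peaks called in that animal, against 43.0%, 46.3% and 33.9% on the rest of the chromosome. For PolII_S5P the shares were 34.3%, 52.0% and 47.1%, against 3.65%, 14.6% and 11.9%. For H3K4me1 they were 10.0%, 18.7% and 2.86%, against 28.9%, 36.2% and 21.4%, lower in the window in 3 of 3 animals. PolII_S5P peaks overlapped MBD3 in 77.1% ± 5.7 of cases against 42.7% ± 5.6 (SD, n = 3), and H3K27ac in 71.9% ± 4.0 against 53.8% ± 2.3. MBD3 peaks met H3K27ac equally often in both places (62.1% ± 1.3 and 61.1% ± 1.2), but met PolII_S5P in 38.9% ± 9.5 against 11.2% ± 5.7 and H3K4me1 in 1.60% ± 1.92 against 21.5% ± 6.9. A sign-flip permutation test over 3 animals cannot go below 0.25, so none was run. The densities of PolII_S5P and MBD3 are themselves higher in the window, which raises the chance of meeting them, and the part of density in these shares was not tested.

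**Figure D4:**
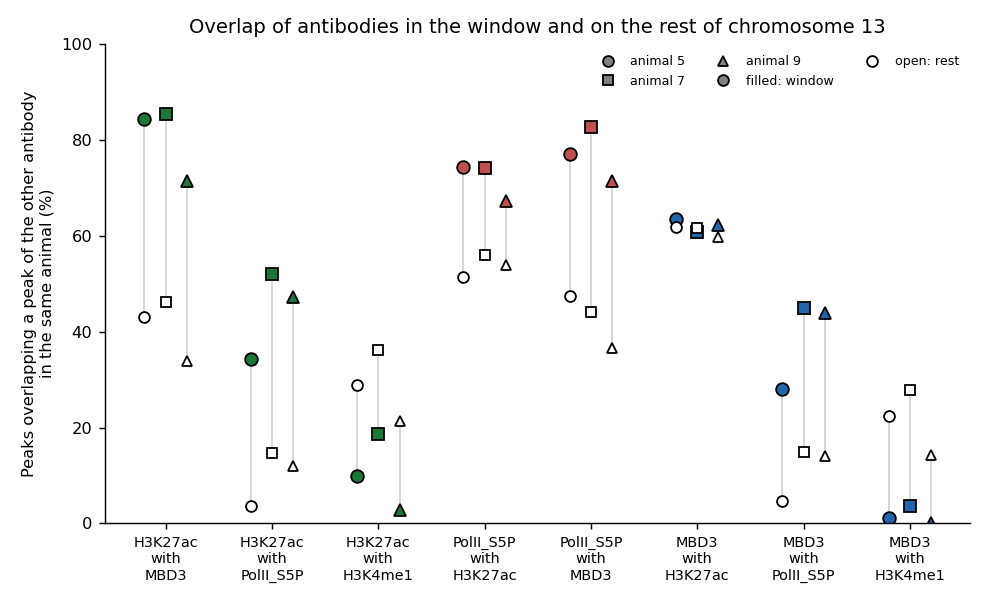
Percent of an antibody's peaks that overlap a peak of another antibody in the same animal, for the window (filled) and the rest of chromosome 13 (open), with 1 line per animal. H3K27ac with MBD3 is at 33.9 to 46.3% on the rest and at 71.4 to 85.3% in the window, MBD3 with H3K27ac stays near 62%, and both shares with H3K4me1 are lower in the window in every animal.

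Joining all overlapping peaks gave 139 sites in the window, of which 107 had at least 1 antibody in 2 or 3 libraries. MBD3 was at 80.4% of these 107 sites and PolII_S5P at 39.3%, against 52.6% and 12.2% of 3770 such sites on the rest of the chromosome. H3K27ac was at 56.1% against 67.3%, H3K4me1 at 15.0% against 33.6% and TDG at 6.54% against 0.186%. The most common makeup was MBD3 alone, at 27 sites with a median width of 477 bp (19.4% of all 139 window sites, against 9.52% of the 6628 sites on the rest). H3K27ac with PolII_S5P and MBD3 followed, at 25 sites with a median width of 1562 bp (18.0% against 2.60%), then H3K27ac with MBD3 at 17 sites of 1182 bp (12.2% against 9.05%). PolII_S5P alone made up 7 sites of 1975 bp (5.04% against 2.08%). H3K27ac alone went the other way, at 4 sites (2.88%) against 13.9%. Sites with no antibody in 2 or 3 libraries were 23.0% of the 139 but 43.1% of the 6628, which lowers the makeup shares more on the rest. Among sites with an antibody in 2 or 3 libraries, H3K27ac with MBD3 made up 17 of 107 against 600 of 3770, about the same share. MBD3 alone made up 27 of 107 against 631 of 3770, still a larger share in the window. The widest site, chr13:23803294-23807336, was 4043 bp long and held all 4 antibodies other than TDG in 3 libraries.

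The 7 sites with PolII_S5P alone, picked out after their values were seen, fell into 3 places in the first block and 2 in the second. They were 16.7% of the 42 PolII_S5P sites of the window, against 29.9% of 461 on the rest of the chromosome, and PolII_S5P sites without H3K27ac were 26.2% against 36.2%. Chr13:22101173-22103993 carried PolII_S5P in 3 libraries over 2821 bp with H3K4me1 in 1, and no H3K27ac or MBD3 in any. Chr13:22178184-22178827, chr13:22179278-22180230 and chr13:22180397-22182518 followed each other closely and carried PolII_S5P in 2, 3 and 3 libraries and nothing else in any library. Chr13:22205322-22206745 carried it in 3 libraries with MBD3, H3K4me1 and TDG in 1 each. In the distal block, chr13:23492085-23494270 and chr13:23579097-23581071 carried it in 3 libraries with H3K4me1 in 1.

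Most TDG regions overlapped MBD3, and few overlapped PolII_S5P. Among the 21 TDG regions of the window, MBD3 overlapped 18 in 2 or 3 libraries and 20 in at least 1, H3K27ac overlapped 7 in 2 or 3, PolII_S5P 2, and H3K4me1 none in any library. On the rest of chromosome 13, 61 TDG regions carried MBD3 in 2 or 3 libraries in 52.5% of cases (85.7% in the window), H3K27ac in 42.6% (33.3% in the window), H3K4me1 in 23.0% (0% in the window) and PolII_S5P in 8.20% (9.52% in the window). Of the 7 regions present in 2 or 3 animals, none directly overlapped PolII_S5P or H3K4me1 in any library. Even so, chr13:23714453-23714715, which is among them, lay in a joined site with PolII_S5P in 3 libraries, chr13:23714419-23716134. H3K4me1 is itself sparse in the window taken as a whole, though not in each block. It stood at 0.688 ± 0.176 times the rest in the proximal block, with 11 TDG regions, and at 1.20 ± 0.08 times in the distal block, with 10. The latter was 1.03 ± 0.07 times where the distal block ran on to the end of the window. These ratios set occupied bins against a rest that includes empty ones. The part of H3K4me1 density in its lack of overlap with TDG was not tested. Distances were also taken between summits, the highest points of the peaks. The median distance from a TDG summit to the nearest MBD3 summit of the same animal was 489, 349 and 292 bp in animals 5, 7 and 9. It was 1092, 594.5 and 1329 bp to H3K27ac, 5914, 5955 and 7284 bp to H3K4me1 and 13456, 17193 and 21322 bp to PolII_S5P. H3K4me1 summits were thus nearer than PolII_S5P summits in 3 of 3 animals, although no H3K4me1 peak overlapped a TDG region. For the 4, 10 and 55 TDG peaks on the rest of chromosome 13 the medians to PolII_S5P were 178737, 45966 and 72883 bp, farther than in the window in every animal. To MBD3 they were 194.5, 26288 and 302 bp, nearer in animal 5, farther in animal 7 and nearly the same in animal 9. To H3K4me1 they were 10972.5, 25168.5 and 7633 bp, again farther than in the window in every animal. To H3K27ac they were 5525, 22556 and 822 bp, farther in animals 5 and 7 and nearer in animal 9. PolII_S5P and MBD3 peaks are denser in the window, which shortens such distances, and the part of density in them was not tested. Within a single animal, TDG peaks overlapped MBD3 in 76.4% ± 21.5 of cases in the window and 51.1% ± 28.2 on the rest, a difference smaller than its spread and seen in 1 of 3 animals. Shares with H3K27ac in animals 5, 7 and 9 were 14.3%, 75.0% and 36.8%, against 0%, 0% and 50.9% on the rest. They were thus higher in the window in animals 5 and 7 and lower in animal 9, unlike the pooled regions. On the rest, TDG peaks met H3K4me1 in animal 9 alone (25.5%), which has the longest TDG list.

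The TDG region chr13:21894295-21895563 was the strongest of the window. Its folds were 19.3, 22.7 and 39.6 in animals 5, 7 and 9, which put it at percentile 99.2 of the TDG list in animal 5 and at the top of the whole list in animals 7 and 9. H3K27ac and MBD3 overlapped it in 3 libraries each. The other region in 3 animals, chr13:23622793-23623050, had folds of 12.2, 13.9 and 19.5, no H3K27ac in any library and MBD3 in 1. The remaining 5 were in 2 animals. Animals 5 and 9 shared chr13:23701274-23702455 (12.9 and 31.3), chr13:23714453-23714715 (15.3 and 17.8) and chr13:23622201-23622457 (7.62 and 13.7). Animals 7 and 9 shared chr13:22159038-22159339 (6.74 and 16.3) and chr13:23634585-23634931 (4.44 and 7.34). On the whole of chromosome 13, 82 TDG regions were found and 3 of them were in all animals, 2 of these in the window.

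**Figure D5:**
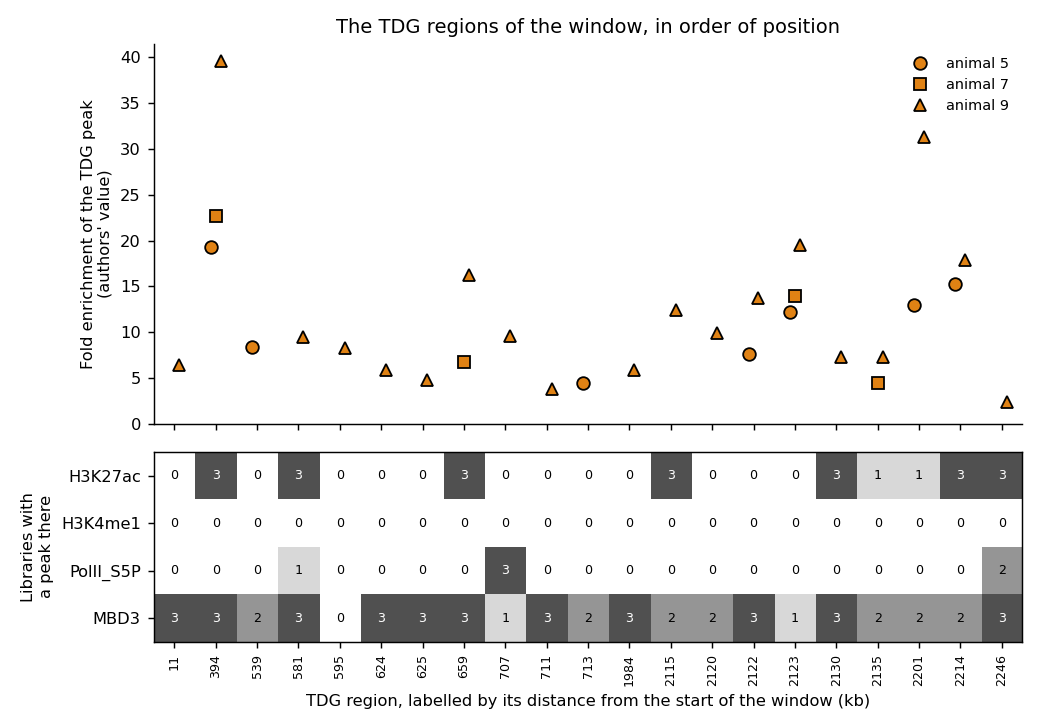
Above, the authors' fold enrichment of the TDG peak in each animal that has one, for the 21 TDG regions of the window labelled by their distance from its start in kb. Below, the number of libraries with an overlapping peak of each other antibody; the MBD3 row is filled in 20 of 21 regions and the H3K4me1 row is 0 in all 21.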

How the data were processed

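The members and all lists, rules and tests here were chosen with earlier results of these data known. The submitters' processing notes name MACS2 2.2.7.1, Picard 2.18.29, SAMtools 1.16.1, Trim Galore 0.6.7 and bcl2fastq 2.20, and the builds mm39 and hg38. Which aligner was run, and against which control peaks were called, is not given in the sources used here. For each library the authors deposited 1 narrowPeak list. For each peak, the deposited columns are a score (whole number), the fold enrichment or ratio to local background, the p-value and the q-value (both as −log10), and, as another kind of number, the summit's distance from the start of its peak. In the deposited lists the lowest −log10 q lay between 1.30 and 1.44. Inputs (3 samples) were not analysed here. Labels tie equal numbers to 1 animal, which pairs libraries across antibodies.

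Positions are on mm39, counted from 1. Peaks overlapping the window by at least 1 bp were counted and divided by its length. The rest of chromosome 13 is the 114.9 Mb left between its outermost peaks (3271627 and 120783165). Regions are peaks of 1 antibody, and sites peaks of all antibodies, joined where they overlap. Percentiles of fold enrichment were taken within each list. Regions named with values are every TDG region in 2 or 3 libraries, for each other antibody the 5 regions in 3 libraries with the best mean percentile, and runs of 3 or more bins with no antibody in 2 or more libraries. The test permuted antibody labels over 12 libraries, with TDG left out. The code was tested on simulated lists. Read depth is unknown, so no interval was computed. Alternatives covered the q-value, summits, covered bases, lists of equal length within each antibody, the window's ends and other chromosomes. They also covered occupied bins, merging within 500 bp, 50 kb bins, left-out animals and pairing by animal. Versions were scipy 1.17.1, pandas 2.3.3, numpy 2.4.6, matplotlib 3.10.9 and Python 3.11.15.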

Additional observations from a re-analysis of the deposited data

Results flagged for a closer look

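Among the 4 antibodies tested, in 2 pairs every library of one lay below the density of the rest of chromosome 13 and every library of the other above it. The log2 density ratio of H3K4me1 minus that of PolII_S5P was -2.92 ± 0.54 (SD over 3 animals), and that of H3K4me1 minus MBD3 was -1.85 ± 0.41. For each pair the two-sided exact permutation p was 0.1, the smallest that 3 libraries against 3 can give.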

How the results depend on the processing

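Of 100 recomputed values, 85 kept their direction and lay within 1 SD between animals (counts and shares within 1.5 times, tests on the same side of 0.05), 13 moved further and 2 changed sign. For TDG that SD is wide (1.29), and its log2 ratio ranged up to 5.89, with lists of equal length. Among the 85 were 6 values by summit and 5 by the bin of the summit, which all equalled the main values. The reruns of the test between antibodies were among them too. Both sign changes were in the log2 density ratio of H3K27ac, which is near 0: it was -0.057 with 100 kb added at each end of the window and between -0.045 and 0.048 with each animal left out. Over bins with a peak it was 0.19, and among peaks with −log10 q above or at 5 it was 0.51. At that q the ratio was -1.31 for H3K4me1 and 1.08 for MBD3, 0 H3K4me1 regions were left in 3 libraries, and 2 bins held H3K4me1 in 3 libraries. By covered bases it was -1.35 for H3K4me1 and 1.11 for MBD3. With lists of equal length it was 2.56 for PolII_S5P and 1.06 for MBD3, and over bins with a peak 1.02 for MBD3. With 50 kb bins, 11.5% held H3K4me1 and 3.85% TDG in 3 libraries. The cause of these shifts was not tested. For the difference between the 4 antibodies, p was 8e-05 at −log10 q of 5 or more, by covered bases and with lists of equal length. It was 0.00174 with the replicate block and 0.00952 with any 1 animal left out (exact permutation), each the smallest that its design allows, so these values do not measure stability. The unknown read depth and the short TDG lists limit these values.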
